A study of Mus musculus with 56 samples.

Results

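Mcm2, Mcm3, Mcm4, Mcm5, Mcm6, Mcm7, Pcna, Pclaf, Ccne2 and Ccnd1 are genes that act when a cell leaves G1 and starts to copy its DNA. They were followed here in mouse liver after dosing with 3 locked nucleic acid (LNA) gapmers of differing liver toxicity. The genes were chosen by symbol, with earlier results of these data known. Every probe set annotated to exactly 1 of the 10 symbols was taken, which gave 27 probe sets, and all 10 genes were measured among the 18194 genes that had such a probe set. In GRCm38.p6 of RefSeq the genes lie as follows: Mcm2 at chr6:88883474-88898780, Mcm3 at chr1:20802966-20820312, Mcm4 at chr16:15623897-15637400, Mcm5 at chr8:75109468-75128439, Mcm6 at chr1:128331575-128359705, Mcm7 at chr5:138164583-138172111, Pcna at chr2:132249286-132253180, Pclaf at chr9:65890323-65903551, Ccne2 at chr4:11190433-11204779 and Ccnd1 at chr7:144929931-144939831. Where several probe sets stand for a gene, the values below are those of the probe set with the highest mean over all arrays.

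Mcm2 to Mcm7 encode the 6 subunits of the minichromosome maintenance ring, which is loaded onto replication origins in G1 and becomes the motor of the replicative helicase in S phase. Pcna encodes the sliding clamp that holds DNA polymerase on its template, and Pclaf encodes a small protein that binds this clamp. Ccnd1 encodes cyclin D1, which with Cdk4 or Cdk6 inactivates the retinoblastoma protein in early G1, and Ccne2 encodes cyclin E2, a partner of Cdk2 at the G1/S transition. Most of these genes are E2F targets and are little expressed in quiescent adult liver, where hepatocytes rarely divide but can re-enter the cycle after injury or loss of tissue. Cyclin D1 is known as the regulator of that re-entry in hepatocytes.

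Liver RNA of 56 male CD-1 mice, 6 to 8 weeks old when dosing began, was hybridised to Affymetrix arrays, 1 mouse per array. LNA gapmers are antisense oligonucleotides with modified ends around a DNA core that recruits RNase H. The mice received vehicle (DPBS) or 25 mg/kg of NTS-1 (labelled non-toxic), TS-2 (toxic) or HTS-3 (severely toxic) subcutaneously in 10 mL/kg, and the sources used here do not give the gapmers' targets. After a single dose there were 3, 3 and 3 vehicle livers at 8, 16 and 72 h, 3, 4 and 3 after NTS-1, 4, 3 and 4 after TS-2, and 3 and 4 at 8 and 16 h after HTS-3, whose mice were found dead or moribund from 48 h on. These livers had the highest score of hepatic hypertrophy among the 10 mice dosed per group, so they do not stand for all dosed mice. In the 2-week study mice were dosed on days 1, 4, 8 and 11 and killed on day 14, with 10 vehicle, 4 NTS-1 and 5 TS-2 livers. In the sample order vehicle mice 1 to 5 stand before the NTS-1 livers and vehicle mice 6 to 10 before the TS-2 livers. The labels do not say why, and the main fit pools all 10.

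The lowest value differed between the 37 single-dose arrays and the 19 arrays from mice dosed for 2 weeks, so levels are compared only within each set. Intensities are on a linear scale, and a gene under 32 is called dim. On the single-dose arrays many members of the group sat on values that recurred exactly from mouse to mouse. Mcm2 was 46.8 on 16 of 37 arrays, Pclaf 22.3 on 14 and Mcm5 119 on 7, and 19.3% of the 9134 genes that reached 32 on at least 3 of these arrays had a value repeated on 7 or more. A group that sits on such a value has a spread near 0 that is not a measure of the spread between mice. HTS-3 mouse 3 at 8 h is given as 8 h in its title and 16 h in its description, was kept at 8 h, and had the lowest upper quartile of intensity of all single-dose arrays (113, against 127 to 169). Vehicle mouse 1 at 16 h stood apart by its neutrophil markers, whose summed intensity over 10 measured genes was 28622, against 256 and 507 in the other vehicle livers of that time. Hepatocyte markers were high in every group, with 0 of 9 under 32.

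The start regions of 7 of the 10 genes were found in the RefSeq promoter table (GRCm38.p6, from 250 bases before to 50 bases after the start), and those of Mcm4, Ccne2 and Ccnd1 were not used here. They are shown because most of them hold an E2F motif. The motif itself was not used to choose the genes. Most of them are E2F targets, as said above, so the share with the motif is not independent of that choice. The 4 E2F octamers searched on both strands were TTTCCCGC, TTTGGCGC, TTTCGCGC and TTTGCCGC, which can overlap one another. At least 1 of them was present in the windows of Mcm3, Mcm5, Mcm6, Mcm7 and Pclaf, 5 of the 7 genes, against 2.60% of the 27025 genes in the table. The octamers were also found in other replication lists, in 5 of 9 genes of origin recognition, 3 of 10 of helicase activation, 6 of 19 of polymerases and clamp loader and 6 of 13 of G1/S cyclins, kinases and E2F. They were in 0 of 7 of nucleotide supply, 2 of 10 of the brakes on G1/S and 1 of 17 of G2 and mitosis, and in 1 of Mcm8 and Mcm9. The CCAAT box, the site of NF-Y, was present in 7 of 7, against 41.1% of all genes. In the stretches below, all on the strand of the gene, capitals mark E2F octamers, which run together where they overlap, and CCAAT or its reverse complement ATTGG. The stretches are chr8:75109336-75109467 (plus strand) for Mcm5, chr1:128359706-128359835 (minus) for Mcm6 and chr9:65890237-65890325 (plus) for Pclaf. The table's start of Mcm5 lies inside the gene span given above, so its stretch ends at the edge of that span, before the start. The stretch of Mcm6 ends just before the start and that of Pclaf 3 bases after it.
Mcm5: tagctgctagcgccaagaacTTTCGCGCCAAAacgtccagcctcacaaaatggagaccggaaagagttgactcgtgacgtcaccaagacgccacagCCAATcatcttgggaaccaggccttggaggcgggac
Mcm6: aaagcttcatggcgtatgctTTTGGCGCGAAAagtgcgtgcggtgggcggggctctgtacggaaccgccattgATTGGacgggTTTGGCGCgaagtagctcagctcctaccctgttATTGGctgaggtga
Pclaf: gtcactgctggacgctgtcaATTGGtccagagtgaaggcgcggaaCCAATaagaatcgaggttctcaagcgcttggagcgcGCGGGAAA
Positions are those of the first base of a match, with -1 for the base before the start. In Mcm5 the overlapping E2F octamers begin at -153 and -149 and the CCAAT boxes at -77 and, beyond the stretch, -22. In Mcm6 the E2F octamers begin at -110, -106 and -47 and the CCAAT boxes at -57 and -14. In Pclaf the E2F octamer begins at -5. The window of Mcm7 that holds E2F octamers has its start inside the gene span and is not shown. The matches of Mcm3, not shown either, begin 20 and 39 bases after its start. A match says only that these letters are present in the window.

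The comparisons asked whether a gapmer changed these genes against vehicle livers of the same time, and whether the toxic gapmers differed from the non-toxic one. Changes are log2 ratios ± the SE of a limma fit over all genes of an array set, and a gene passed the test at a Benjamini-Hochberg adjusted p under 0.05. Members of the group passed in 3 of the 10 comparisons with vehicle. These were HTS-3 at 8 h (Pclaf and Ccne2 higher), HTS-3 at 16 h (Mcm2 and Mcm7 higher) and TS-2 after 2 weeks (Mcm3, Mcm4, Mcm5, Pclaf, Ccne2 and Ccnd1 higher). No member was lower than vehicle with an adjusted p under 0.05 in any of the 10.

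**Figure D1:**
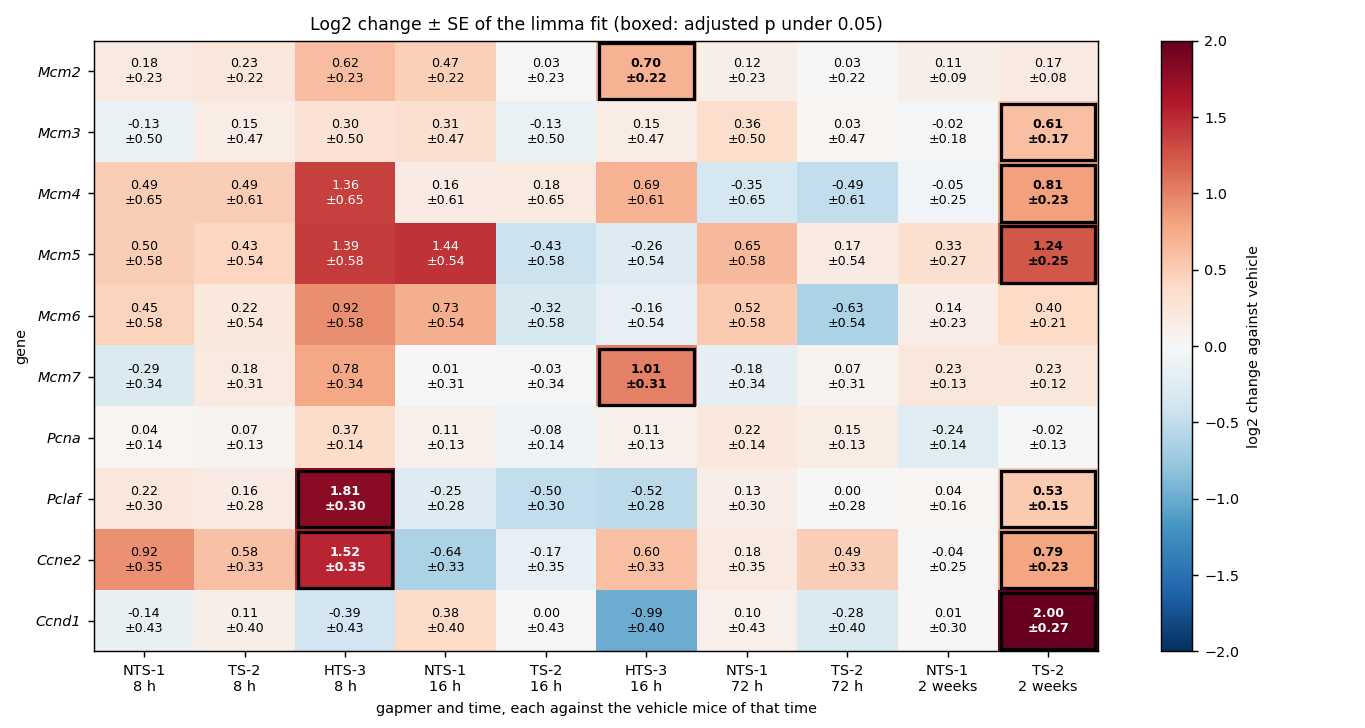
Log2 change against the vehicle mice of the same time (colour and number, with the SE of the limma fit beneath) for the 10 genes (rows) in each of 10 comparisons (columns); boxes mark an adjusted p under 0.05. The 10 boxed changes lie in the columns of HTS-3 at 8 h (2), HTS-3 at 16 h (2) and TS-2 at 2 weeks (6), and all are positive.

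At 8 h after HTS-3 2 of the 10 genes passed, both higher, where 0.588% of all 18194 genes passed in either direction and 0.165% were higher. The median log2 change of the 10 genes was 0.85, against 0 over all genes. The shares and medians over all genes on the single-dose arrays include 3231 genes at the lowest value on all 37 arrays, which could not pass. Over the 9134 genes that reached 32 on at least 3 single-dose arrays, 0.755% passed at 8 h after HTS-3 and 0.219% were higher, with a median of 0.01. At 16 h after HTS-3 2 of 10 passed, where 7.35% of all genes passed and 3.31% were higher, and the members' median was 0.13. Of the 9134 brighter genes 13.2% passed there and 5.62% were higher, with a median of 0.07. Repeated dosing with TS-2 gave 6 of 10, all higher, where 37.4% of the 14454 genes tested passed and 22.8% were higher. The median of the 10 genes was 0.57 there. Since 37.4% of all genes passed in this comparison, a single member past the test is not unusual in it. The members were chosen with earlier results of these data known. Their counts beside the shares over all genes are therefore a description and not a test of the group.

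By limma, 0 of 10 members passed after NTS-1 at 8 h (0.610% of all genes, and 1 member at an unadjusted p under 0.05), 16 h (0.148%, 2 members unadjusted) and 72 h (0%, 0 members unadjusted). The same was found after TS-2 at 8 h (0.0440% of all genes), 16 h (0.0165%) and 72 h (0.137%), with 0 members at an unadjusted p under 0.05 at each time. Repeated dosing with NTS-1 gave 0 of 10 by limma, with 0 at an unadjusted p under 0.05, where 4.91% of all genes passed. The largest single-dose change of a member after NTS-1 or TS-2 was that of Mcm5 at 16 h after NTS-1.

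**Figure D2:**
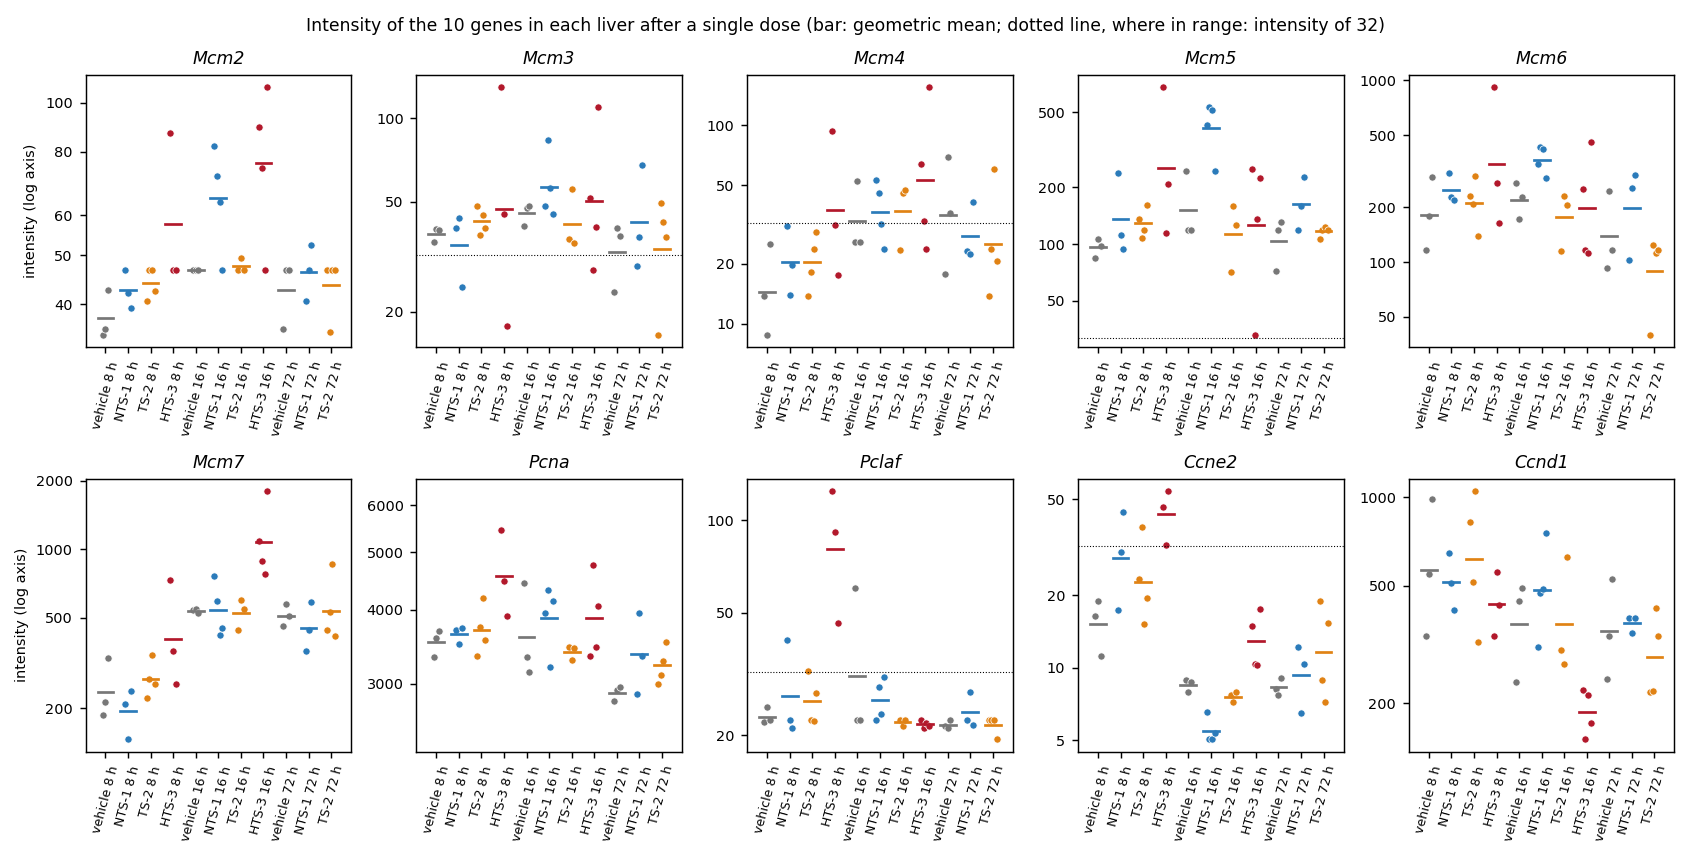
Intensity (log axis) of the 10 genes in each of 37 livers after a single dose; each point is 1 mouse, bars are geometric means, and colours mark vehicle (grey), NTS-1 (blue), TS-2 (orange) and HTS-3 (red). Pclaf stands out at 8 h after HTS-3 (46.2 to 124) and is back at 21.0 to 22.3 at 16 h, while Mcm7 lies above vehicle in all 4 HTS-3 livers at 16 h.

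Among the helicase subunits, Mcm7 and Mcm2 passed after a single dose, both at 16 h after HTS-3. Mcm7 was 541, 545 and 525 in the vehicle livers at 16 h and 1093, 885, 778 and 1800 after HTS-3. All 4 HTS-3 livers lay above all 3 vehicle livers, and mouse 4 was the highest. The difference was 2.01-fold (log2 change 1.01 ± 0.31, limma adjusted p = 0.0487). The call was near the threshold. It was lost without any 1 of the vehicle mice and without HTS-3 mouse 1 or 4 (adjusted p = 0.0837 to 0.198, log2 change 0.76 to 1.02), and when the mouse with conflicting labels was moved to 16 h (log2 change 0.59, adjusted p = 0.580). Over all alternative settings the adjusted p ran from 0.00825 to 0.580. Of the 4 probe sets of Mcm7 another one passed at 16 h with a log2 change of 1.35 ± 0.31 (adjusted p = 0.00825 over all probe sets), the one used above did not on that footing (adjusted p = 0.0636), and the remaining pair gave 0.29 and 0.79.

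In vehicle livers Mcm7 was 187, 212 and 332 at 8 h, so that the vehicle livers at 16 h and those at 72 h (458, 574 and 506) lay wholly above those at 8 h. The change from 8 to 16 h was 1.18 ± 0.34 (limma adjusted p = 0.101), and it passed without vehicle mouse 3 at 8 h (1.43, adjusted p = 0.0459). By limma, 0 of 10 members passed between vehicle times, at 16 against 8 h (0.934% of all genes passed, 2 members unadjusted), 72 against 8 h (0.901%, 3 unadjusted) or 72 against 16 h (0.0275%, 1 unadjusted). At 8 h after HTS-3 Mcm7 was 734, 356 and 254, which overlapped vehicle (log2 change 0.78 ± 0.34, adjusted p = 0.331).

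Mcm2 was 46.8 in all 3 vehicle livers at 16 h, the value on which this probe set recurred, and 89.6, 74.2, 46.8 and 108 after HTS-3. Mcm2 was 1.63-fold higher (log2 change 0.70 ± 0.22, adjusted p = 0.0449), with 3 of 4 livers above vehicle and mouse 3 on the recurring value. The call was lost without any 1 of the vehicle mice and without HTS-3 mouse 1, 2 or 4 (adjusted p = 0.0693 to 0.189), and with the conflicting mouse moved to 16 h (log2 change 0.56, adjusted p = 0.174). Over all alternative settings the adjusted p ran from 0.00823 to 0.813. NTS-1 livers at 16 h had 82.1, 71.8, 63.8 and 46.8, a log2 change of 0.47 ± 0.22 that did not pass (adjusted p = 1). The log2 difference between HTS-3 and NTS-1 in Mcm2 at 16 h was 0.23 (95% interval -0.18 to 0.64) and did not pass.

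Mcm5 did not pass against vehicle after a single dose. In the NTS-1 livers at 16 h it was 426, 530, 516 and 245, against 244, 119 and 119 in vehicle. The groups were just apart, but the log2 change of 1.44 ± 0.54 did not pass (adjusted p = 0.873), and the highest vehicle liver was mouse 1, the one with neutrophil markers. In the HTS-3 livers of that time it was 251, 33.0, 136 and 225, on both sides of vehicle. At 8 h after HTS-3 Mcm5 was 681, 114 and 208, against 84.9, 107 and 98.4 in vehicle, all above vehicle but with most of the difference in mouse 1 (log2 change 1.39 ± 0.58, adjusted p = 0.307).

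Mouse 1 of the HTS-3 group at 8 h was highest of its group in 8 of the 10 genes. Mcm6 was 921 there, against 273 and 165 in the other 2 livers, and Mcm3 was 129, against 45.1 and 17.9. Mcm4 was 93.7 in that mouse, against 31.6 and 17.6. The same mouse had the highest macrophage marker level of the group, with a summed intensity over 11 markers of 18333, against 15088 and 12971 in the other 2 and 10069 to 10744 in vehicle, and the highest upper quartile of all single-dose arrays. The part of either in the members' values was not tested. Mcm3, Mcm4 and Mcm6 did not pass in any single-dose comparison with vehicle, and Mcm4 reached 32 on only 13 of 37 arrays.

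After a single dose of TS-2 none of the 6 helicase genes passed by limma. At 72 h after TS-2 the changes of the 6 genes ran from -0.63 for Mcm6 to 0.17 for Mcm5. The difference between the TS-2 effects at 72 and 8 h passed for 0 of 10 genes by limma (0 unadjusted, 0.0440% of all genes).

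In the 2-week study Mcm5 rose most after TS-2 among the helicase subunits. Its 5 values were 80.6, 170, 154, 310 and 361, against 51.9 to 111 (median 83.1) in the 10 vehicle livers. Of the 5 livers 4 lay above all vehicle livers, and mouse 1 lay within their range. The rise was 2.37-fold, a log2 change of 1.24 ± 0.25 (adjusted p = 5.93e-04). The call held in all 15 fits that left out 1 mouse (log2 change 1.01 to 1.55). It also held in the 13 alternative settings, where the log2 change ran from 0.57 to 1.42 (adjusted p up to 0.0262).

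Mcm4 was 31.4, 32.3, 39.1, 70.3 and 84.9 after 2 weeks of TS-2 and 15.1 to 35.6 (median 28.3) in vehicle. Mice 3, 4 and 5 were above every vehicle liver. Only 2 of 10 vehicle livers reached 32, so the rise is given as a lower limit, at least 1.46-fold with values under 32 taken as 32 (log2 change 0.81 ± 0.23, adjusted p = 0.00794). Mcm3 was 40.9, 44.2, 65.2, 49.6 and 99.6, against 26.8 to 51.5 (median 36.1), and mice 3 and 5 were above every vehicle liver. Mcm3 was 1.52-fold higher (log2 change 0.61 ± 0.17, adjusted p = 0.00790). With vehicle mice 6 to 10 as the only controls this call was lost (log2 change 0.43, adjusted p = 0.123, the highest of its alternatives, which began at 0.00596). Mcm3 was 26.8 to 36.1 in vehicle mice 1 to 5 and 36.2 to 51.5 in vehicle mice 6 to 10. The other 4 probe sets of Mcm3 gave 0.02 to 0.32 and did not pass.

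Mcm2, Mcm6 and Mcm7 did not pass on their main probe sets after 2 weeks of TS-2. Mcm6 was 55.3, 83.5, 117, 107 and 124, against 39.6 to 108 (median 67.4), with a log2 change of 0.40 ± 0.21 (adjusted p = 0.146). Mcm7 was 413, 519, 554, 681 and 889, against 438 to 556, with the lowest TS-2 liver below and the highest 2 above every vehicle liver (log2 change 0.23 ± 0.12, adjusted p = 0.150). Mcm2 lay within 109 to 129, against 97.6 to 111 (log2 change 0.17 ± 0.08, adjusted p = 0.0973). The probe sets disagreed for Mcm2 and Mcm6: a dimmer probe set of each was higher, with log2 changes of 0.57 ± 0.12 and 0.84 ± 0.24 (adjusted p = 0.00120 and 0.0133 over all probe sets). Both Mcm6 and Mcm7 passed without TS-2 mouse 1 (log2 changes 0.59 and 0.36, adjusted p = 0.0261 and 0.0143), which brought the count to 8 of 10. That fit leaves out the TS-2 liver with the lowest mean over Mcm2 to Mcm7. Its share over all genes is not given, so this count stands without a background. Of the 27 probe sets 12 were higher after 2 weeks of TS-2 and 0 lower, and 21 of the 22 that reached 32 had a positive change. These counts come from a separate fit over all probe sets without the filter. The share of all probe sets past the test in it is not given, so they stand without a background.

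**Figure D3:**
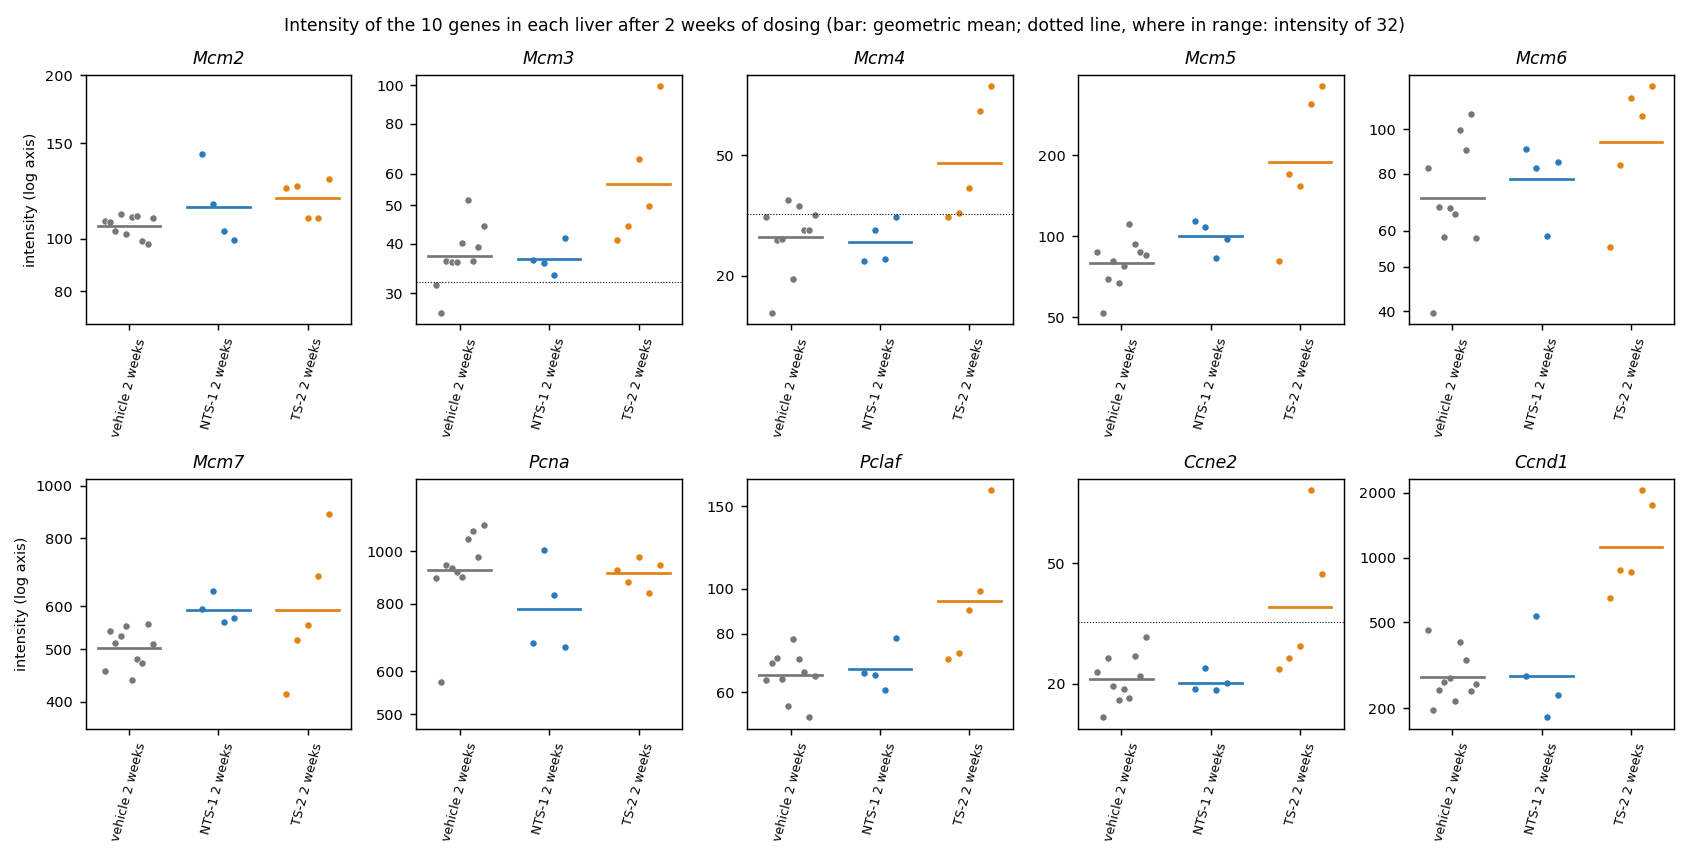
Intensity (log axis) of the 10 genes in each liver of the 2-week study; each point is 1 mouse (10 vehicle, 4 NTS-1, 5 TS-2) and bars are geometric means. Ccnd1 is above all vehicle and NTS-1 livers in each of the 5 TS-2 livers (647 to 2055), and within TS-2 mice 4 and 5 lie highest for Mcm4, Mcm5, Mcm7, Pclaf, Ccne2 and Ccnd1.

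The rise was uneven among the 5 TS-2 livers. Mouse 5 was highest in 7 of the 10 genes and among the highest 2 in all 10, and mouse 4 was among the highest 2 in 6. Mouse 1 was among the highest 2 in 0. The array of mouse 5 also had the highest upper quartile of intensity of the 2-week arrays (167, against 148 to 158 in the other TS-2 livers and 127 to 152 in vehicle) and the lowest share of probe sets at 32 or more (54.3%), and the part of this in its values was not tested. The mean log2 intensity over Mcm2 to Mcm7 was 6.35, 6.71, 6.89, 7.16 and 7.55 in mice 1 to 5, against 5.91 to 6.65 in vehicle.

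The clamp gene Pcna passed in none of the 23 comparisons made, and its partner Pclaf passed in both sets of arrays. Pcna had values of 2807 to 5459 on the single-dose arrays. At 8 h after HTS-3 it was 5459, 4474 and 3897, against 3332, 3584 and 3686, wholly above vehicle (log2 change 0.37 ± 0.14), but it did not pass (adjusted p = 0.289). After 2 weeks of TS-2 Pcna was 922, 878, 975, 838 and 944, inside the vehicle range of 573 to 1118, with a log2 change of -0.02 (95% interval -0.29 to 0.24). An increase of the size seen for Mcm4 or Mcm5 lies outside that interval.

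Pclaf passed against vehicle at 8 h after HTS-3. It was 22.1, 24.7 and 22.3 in vehicle at 8 h and 124, 91.4 and 46.2 after HTS-3. Vehicle was under 32 throughout, so the difference is at least 2.52-fold (log2 change 1.81 ± 0.30, adjusted p = 0.00171). All 3 HTS-3 livers lay above vehicle, and the call held without each of the 6 mice in turn. It was lost when only these 2 groups were fitted (adjusted p = 0.743), and over all alternative settings the adjusted p ran from 5.58e-06 to 1. At 16 h after HTS-3 the same gene was 22.3, 21.0, 21.9 and 21.4, at or under its recurring value of 22.3, against 60.4, 22.3 and 22.3 in vehicle, where the high value was mouse 1.

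The HTS-3 effect on Pclaf at 16 h differed from that at 8 h by -2.33 ± 0.41 on the log2 scale (adjusted p = 0.00277). It was the 1 of the 10 genes for which this difference passed, where 1.32% of all genes passed, and it passed without each of the 13 mice in turn. Every vehicle liver at 8 h, every HTS-3 liver at 16 h and 2 of the 3 vehicle livers at 16 h were dim, so the size of this difference was not measured. With log2 of intensity plus 32 it was -1.33 and with the mean of the gene's probe sets -0.77, and it passed with both. At 8 h Pclaf was also at least 2.51-fold higher with HTS-3 than with TS-2 (log2 difference 1.65 ± 0.28, adjusted p = 0.00275, 1 of 10 members against 0.264% of all genes). Against NTS-1 it was at least 2.32-fold higher (1.59 ± 0.30, adjusted p = 0.00398, 1 of 10 against 0.572%). Both of these groups were dim, with 1 liver of each at 32 or more, and the log2 differences ran down to 0.53 over the alternatives. These 3 differences share the HTS-3 livers at 8 h, and all 3 were lost when only the groups compared were fitted.

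After 2 weeks of TS-2 Pclaf was 70.8, 72.7, 90.0, 98.9 and 163, against 53.0 to 78.0 (median 65.7) in vehicle. Mice 3, 4 and 5 were above every vehicle liver. Pclaf was 1.44-fold higher (log2 change 0.53 ± 0.15, adjusted p = 0.00742). Against vehicle mice 6 to 10 alone the call was lost (adjusted p = 0.0594, within 0.00704 to 0.109 over its alternatives).

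Ccne2 was dim in most groups, reaching 32 on 5 of 37 single-dose arrays. At 8 h it was 46.6, 32.3 and 54.1 after HTS-3 and 16.3, 19.0 and 11.2 in vehicle, so that every HTS-3 liver reached 32 and no vehicle liver did. The difference was at least 1.35-fold (log2 change 1.52 ± 0.35, adjusted p = 0.0388). It did not survive leaving out mouse 1 or 3 of either group (adjusted p = 0.0530 to 0.0989). Moving the mouse with conflicting labels to 16 h gave a log2 change of 1.36 (adjusted p = 0.326), and over all alternative settings the adjusted p ran from 0.00986 to 1. NTS-1 livers at 8 h, with 17.3, 30.4 and 44.4, overlapped both groups (log2 change 0.92 ± 0.35, adjusted p = 0.523).

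In the 2-week study Ccne2 was 22.5, 24.4, 26.7, 87.0 and 46.1 after TS-2, against 15.5 to 28.5 in vehicle. Mice 4 and 5 reached 32, and the other 3 lay inside the vehicle range. The rise was at least 1.31-fold (log2 change 0.79 ± 0.23, adjusted p = 0.0111), and it was lost against vehicle mice 6 to 10 alone (adjusted p = 0.0946) and with array weights (adjusted p = 0.0548), within 0.00893 to 0.0946 over its alternatives.

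Ccnd1 had the largest change of the group after repeated dosing. It was 647, 880, 856, 2055 and 1758 after 2 weeks of TS-2, against 195 to 460 (median 261) in the 10 vehicle livers and 282, 533, 181 and 231 after NTS-1. Every TS-2 liver lay above all 14 others. Ccnd1 was 4.01-fold higher than in vehicle (log2 change 2.00 ± 0.27, adjusted p = 1.70e-05), it passed in all 13 alternative settings and all 15 fits without a mouse, and its 3 probe sets gave 2.00 to 2.36.

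After a single dose Ccnd1 did not pass against vehicle. At 16 h after HTS-3 it was 222, 151, 213 and 172, below the 236, 445 and 491 of vehicle in every liver (log2 change -0.99 ± 0.40, adjusted p = 0.146). The difference from NTS-1 livers of that time (311, 474, 490 and 754) did pass (log2 difference -1.37 ± 0.37, adjusted p = 0.0160), and the groups were apart. It was lost without NTS-1 mouse 4 or HTS-3 mouse 2 (adjusted p up to 0.0776). The call was also lost with array weights, the compared groups alone, the replicate block and the mouse with conflicting labels moved (limma adjusted p up to 0.342).

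The gapmers were also set against one another. After 2 weeks 5 of the 10 genes were higher with TS-2 than with NTS-1, where 21.0% of all genes passed and 14.1% were higher. The log2 difference was 1.99 ± 0.34 for Ccnd1 (adjusted p = 8.66e-04), 0.92 ± 0.31 for Mcm5 (adjusted p = 0.0391) and 0.63 ± 0.21 for Mcm3 (adjusted p = 0.0366). No NTS-1 liver reached 32 for Mcm4 or Ccne2, so their differences are at least 1.48-fold (log2 difference 0.87 ± 0.28, adjusted p = 0.0328) and at least 1.31-fold (0.83 ± 0.28, adjusted p = 0.0439). Pclaf just missed (0.49 ± 0.18, adjusted p = 0.0586). Only Ccnd1 passed without each of the 9 mice in turn, and the count fell to 1 without TS-2 mouse 5 or NTS-1 mouse 1 or 3, and to 2 without TS-2 mouse 4 or NTS-1 mouse 2 or 4. It was also 1, Ccnd1, with the Actb 3'/5' ratio as a covariate (adjusted p = 0.0606 to 0.0719 for the other 4), with these groups fitted alone, and with vehicle mice 1 to 5 as the only vehicle livers in the fit.

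At 16 h 4 of 10 genes differed between HTS-3 and NTS-1, where 9.65% of all genes passed. Mcm7 (log2 difference 1.00 ± 0.29, adjusted p = 0.0263) and Ccne2 were higher with HTS-3, though Ccne2 was dim in both groups. Mcm5 (-1.70 ± 0.50, adjusted p = 0.0284) and Ccnd1 were lower. The Mcm5 call was lost without NTS-1 mouse 1, 2 or 3 or HTS-3 mouse 2, and the Mcm7 call without NTS-1 mouse 3 or 4 or HTS-3 mouse 1 or 4 (adjusted p up to 0.148). Both were also lost with the compared groups alone, the replicate block and the conflicting mouse moved. Over all alternative settings the limma adjusted p reached 0.622 for Mcm5 and 0.449 for Mcm7. Against TS-2 at 16 h Mcm7 was higher with HTS-3 (1.04 ± 0.31, adjusted p = 0.0469, 1 of 10 against 5.95% of all genes), a call that was lost without any TS-2 mouse or HTS-3 mouse 1 or 4 (adjusted p up to 0.210). Its limma adjusted p reached 0.640 over the alternative settings. Between TS-2 and NTS-1 0 of 10 passed by limma at 8 h (0.506% of all genes, 0 unadjusted), 16 h (0.231%, 2 unadjusted) and 72 h (0.170%, 1 unadjusted).

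Other genes of DNA replication were taken from 8 lists. At 8 h after HTS-3 3 of 105 measured list genes passed, 2.86% against 0.588% of all genes. Cdk1, the mitotic kinase, was 2.64-fold higher (log2 change 1.40 ± 0.29, adjusted p = 0.0178), Birc5 was higher but dim in both groups, and Clspn was lower but dim. At 16 h 9 of 105 passed, 8.57% against 7.35% of all genes, 6 higher and 3 lower. Prim1, the catalytic primase subunit, was 1.79-fold higher and Rrm2, the small subunit of ribonucleotide reductase, 2.67-fold. Prim2, the large primase subunit, was at least 2.21-fold lower, and Topbp1, which helps to activate the helicase, at least 5.42-fold lower. Of the 14 brakes on G1/S 2 were higher and 1 lower at that time. The Cdk inhibitor Cdkn1a was 3.53-fold higher (log2 change 1.82 ± 0.55, adjusted p = 0.0422). Cdkn1c, a second such inhibitor, also passed as higher but was dim in both groups. Rbl2, a relative of the retinoblastoma protein, was 3.11-fold lower (log2 change -1.64 ± 0.28, adjusted p = 2.45e-04).

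After 2 weeks of TS-2 42 of the 96 list genes left by the filter on intensity passed, 43.8% against 37.4% of all genes. They went both ways, 24 higher and 18 lower. The counts by list below are likewise of genes tested. Of all genes 22.8% were higher, so a list with a like share of genes higher is near the background. The list of G2 and mitosis genes had 8 of 14 higher and 0 lower (median log2 change 0.57), with Cdca8 3.47-fold and Cdc20 2.60-fold higher. Ccnb2, Mki67, Birc5, Nusap1 and Ube2c, among these 8, reached 32 in 0 of 10 vehicle livers and in 2 or 3 TS-2 livers. The filter left 14 of 19 measured genes of this list. A gene could be kept through its TS-2 livers alone, so this share and median may be raised by the filter. Nucleotide supply had 1 of 7 higher and 4 lower (median -0.38), and Tk1, the thymidine kinase of S phase, fell 3.09-fold, from 534 to 852 in vehicle to 126 to 382. Origin recognition had 1 of 9 higher, the loading factor Cdt1, and 3 lower, among them Orc3 (1.51-fold) and the Cdt1 inhibitor Gmnn (1.34-fold). Helicase activation had 3 of 14 higher and 2 lower. Of the partners Timeless and Tipin, which travel with the replication fork, Timeless was 1.46-fold higher and Tipin 1.76-fold lower, and Topbp1 was 1.71-fold higher. Polymerases and clamp loader had 5 of 20 higher and 4 lower. Of the subunits of the single-strand binding complex, Rpa1 was 2.00-fold higher and Rpa3 1.89-fold lower.

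The brakes on G1/S went both ways after 2 weeks of TS-2, with 2 of 14 higher and 4 lower. Cdkn1a was 325 to 9349 (median 3282), against 84.6 to 338 in vehicle, 12.3-fold higher (log2 change 3.62 ± 0.56, adjusted p = 5.93e-05). Btg2, an antiproliferative gene, was 8.96-fold higher. Cdkn2c, an inhibitor of Cdk4 and Cdk6, fell 2.59-fold. Among G1/S cyclins, kinases and E2F factors 4 of 16 were higher, near the background of 22.8%, E2f3 and Ccnd3 among them, and Cdk6 was lower. Mcm8 and Mcm9, relatives outside the ring, gave 0 of 2 past the test. With repeated NTS-1 4 of 96 list genes passed, 4.17% against 4.91% of all genes, all lower, among them Rpa3, Orc4 and Orc6.

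**Figure D4:**
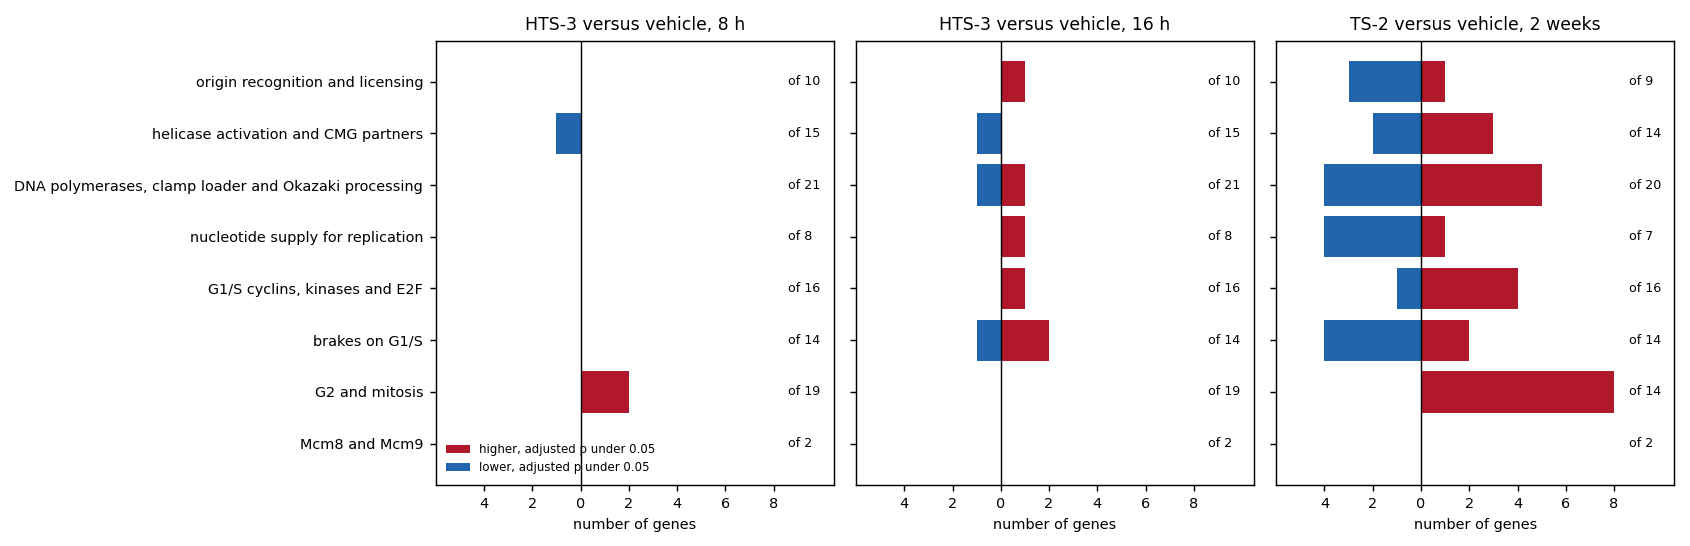
Number of genes of 8 replication and cell cycle lists (rows) higher (red, right) or lower (blue, left) than vehicle at an adjusted p under 0.05, with the number tested at the right, for HTS-3 at 8 h and 16 h and TS-2 at 2 weeks. After 2 weeks of TS-2 the G2 and mitosis list has 8 of 14 higher and 0 lower, and nucleotide supply 1 higher and 4 lower of 7. Several of the 8, named in the text, were under 32 in every vehicle liver.

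In whole liver a change in the share of a cell type and a change within its cells cannot be told apart. Beside the changes after 2 weeks of TS-2, where 37.4% of all genes passed and 22.8% were higher, 3 of 11 macrophage markers were higher (Cd68, Marco and Cd14), 4 of 10 stellate cell markers were higher, 8 of 10 endothelial markers were lower, and 3 of 9 hepatocyte markers passed (Hnf4a and Apob higher, Apoa1 lower). Clec4f and Adgre1, of the same macrophage list, had lower medians than vehicle and were not among the markers that passed. Their medians were 355 against 553 for Clec4f and 156.5 against 188 for Adgre1. The summed macrophage intensity was 2180 to 16489 (median 3854), against 1793 to 6399 (median 2977) in vehicle, and its highest value was that of mouse 5, the mouse that was highest in most members. The summed endothelial intensity was 1429 to 3799, against 3526 to 6170, and the stellate sum 7308 to 14476, against 5765 to 9289. Beside HTS-3 at 8 h all 11 macrophage markers had a positive change (median 0.76), and 1 passed, Fcgr1, at least 3.13-fold higher (log2 change 2.23 ± 0.51, adjusted p = 0.0344), where 0.588% of all genes passed. Fcgr1 was also higher at 8 h after NTS-1 (log2 change 3.38 ± 0.51, adjusted p = 1.88e-04), where 0.610% of all genes passed. Beside HTS-3 at 16 h, where 7.35% of all genes passed, 4 of 10 endothelial markers were lower and 1 higher, and 2 of 11 macrophage markers were lower. The vehicle livers of that time had uneven summed macrophage intensities of 10628, 12937 and 32149. With repeated NTS-1, where 4.91% of all genes passed, 5 of 10 endothelial markers were lower. The part of these cell types in the members' values was not tested. The fit without mouse 5 gave 6 of 10 members after 2 weeks of TS-2, and its share over all genes is not given. Leaving out a mouse does not separate a change in cell share from a change within cells.

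By likeness of pattern to the mean of Mcm2 to Mcm7 over mice, the 5 nearest genes outside the group were Icam1, Rela, Wasf2, Ets2 and Ppp2r2a, among 9030 genes that reached 32 in both array sets. Their mean Pearson r over the 37 single-dose mice and the 19 mice of the 2-week study was 0.85 for Icam1 and 0.82 for Ppp2r2a. The mice of a set share array processing and, in part, treatment, and no p is given. These means hide differences between the sets. Among the subunits themselves, which are part of that mean, r over the single-dose and over the 2-week mice was 0.84 and 0.89 for Mcm3, 0.86 and 0.92 for Mcm4 and 0.76 and 0.97 for Mcm5. It was 0.78 and 0.82 for Mcm6, 0.68 and 0.72 for Mcm7 and 0.84 and 0.37 for Mcm2. Outside the ring it was 0.30 and 0.80 for Pclaf, -0.13 and 0.86 for Ccnd1 and 0.44 and 0.25 for Pcna. Among mice of the same group, with group means removed, Mcm2 had 0.78 and 0.05, Pclaf 0.32 and 0.63 and Ccnd1 0.08 and 0.74. These values are descriptions over mice and were not compared by a test.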

How the data were processed

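Liver RNA of 56 mice was measured on Affymetrix arrays with 45101 probe sets. The values used are the deposited intensity values on a linear scale, made by the authors with RMA per the submitters' processing notes, with no version given. RNA was purified with RNeasy kits and labelled in a single round with Enzo reagents, per the labels' protocols. For 34958 probe sets the platform annotation gives 1 gene, for 932 several and for 9211 none. Each of 18194 genes was represented by its probe set with the highest mean. The log2 intensities were fitted with limma 3.58.1 (R 4.3.3), the single-dose and 2-week arrays apart, with 1 mean per group, after a filter for genes whose intensity passed an array's 40th percentile on 3 or more arrays (18194 and 14454 genes). It removed no gene on the single-dose arrays, where 44.1% to 47.3% of values lie at the lowest value, so genes at the lowest value on all arrays count in every single-dose share over all genes. P-values were adjusted by Benjamini-Hochberg over all genes tested, with a threshold of 0.05. An intensity under 32 counts as dim: a fold against a dim group is a lower limit with values under 32 taken as 32, and none is given where both groups are dim. The number of arrays limits the precision.

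The named genes are the 10 members, for each list and comparison with vehicle up to 3 genes with the smallest adjusted p among those that passed, and the 5 genes most like Mcm2 to Mcm7. The members and lists were chosen with earlier results of these data known. The fit was tested on simulated data. Groups follow the sample titles. Alternatives were no filter, a filter at 32, quantile normalization, log2 of intensity plus 32, array weights, a variance trend, the Actb 3'/5' ratio as covariate, the compared groups alone, other probe set rules, replicate number as a block, subsets of vehicle mice, the mouse with conflicting labels moved, and each mouse left out.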

Additional observations from a re-analysis of the deposited data

Results flagged for a closer look

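Among 70 sets of 1 gene in 1 group of 4 to 10 mice, 4 held a mouse far from the rest by Dixon's test. At the 95% level chance alone finds such a mouse in about 1 in 20 groups. Mcm2 was 35.2 in TS-2 mouse 2 at 72 h, against 46.8 in the other 3. Pclaf was 19.4 in TS-2 mouse 4 at 72 h, against 22.3 in the other 3. In both the others sit on a value that recurs on many arrays, so their spread is 0. Mcm6 was 39.7 in TS-2 mouse 1 at 72 h, with the next liver at 112. Pcna was 573 in vehicle mouse 2 of the 2-week study, with the next at 893. The effect of HTS-3 on Pclaf differed between 16 and 8 h by -2.33 on the log2 scale, by a test of that difference (limma adjusted p = 0.00277). Most livers behind it were dim, so its size was not measured, and it ran from -2.51 to -0.77 over alternative settings.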

How the results depend on the processing

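Counts below are members past the test, of 10. With every probe set on its own, a gene was counted by its probe set with the smallest p. Against vehicle, HTS-3 at 8 h gave 2, and 1 with array weights, 0 with the compared groups alone, 1 with the conflicting mouse moved and 0 with the replicate block. At 16 h HTS-3 gave 2, and 0 with the groups alone, 1 with every probe set on its own, 0 with the mouse moved and 0 with the block. TS-2 at 2 weeks gave 6, and 3 against vehicle mice 6 to 10. The share over all genes with those controls is not given. Every probe set on its own gave 9, a count that takes the best of 1 to 5 probe sets per gene. No background counted in that way is given. Against NTS-1 at 2 weeks TS-2 gave 5, and 1 with the Actb covariate, the groups alone or vehicle mice 1 to 5, 3 with vehicle mice 6 to 10 and 0 with the block. At 16 h it gave 0, and 1 with array weights. HTS-3 against TS-2 gave 1 at 8 h, and 2 with array weights and 0 with the groups alone or the block. At 16 h it gave 1, and 2 with the Actb covariate, array weights, the filter at 32 or quantile normalization, and 0 with the groups alone, the mouse moved or the block. HTS-3 against NTS-1 gave 1 at 8 h, and 2 with array weights and 0 with the groups alone or the block. At 16 h it gave 4, and 1 with the groups alone or the mouse moved and 0 with the block. The difference of HTS-3 effects gave 1, and 0 with the groups alone or the block. Vehicle at 16 against 8 h gave 0, and 1 with array weights.

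With 1 mouse left out, HTS-3 against vehicle gave 1 to 2 at 8 h and 0 to 2 at 16 h, and TS-2 at 2 weeks 6 to 8. TS-2 against NTS-1 at 2 weeks gave 1 to 6, HTS-3 against TS-2 1 to 1 and 0 to 2, HTS-3 against NTS-1 1 to 1 and 2 to 4 (8 and 16 h), the difference of HTS-3 effects 1 to 1 and vehicle at 16 against 8 h 0 to 1. Shares over all genes are not given for the fits with a mouse left out. Mcm2 in TS-2 against NTS-1 at 2 weeks took the other sign with quantile normalization (-0.037) and ranged from -0.010 to 0.17 with 1 mouse left out, the lowest without NTS-1 mouse 4.

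Replicate numbers did not pair the mice: in 0 of 21 comparisons did every pair of same-numbered mice correlate above 0.1 (r from -0.50 to 0.48). With the replicate block TS-2 at 2 weeks gave 4 members. Over all genes the block gave 3413 calls there, against 5405, and 1 after HTS-3 at 16 h, against 1337. The causes were not tested. Dim values limit Mcm4, Pclaf and Ccne2 on the single-dose arrays, which reached 32 on 13, 6 and 5 of 37 arrays.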
